A study of Daucus carota with 6 samples.

Results

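Small RNA of shredded carrot (Daucus carota) tissue was profiled before and after storage. This account concerns 137 of the 469 listed miRNA names, those in the style of animal miRNA names that were found before storage only. The members were chosen by their measured values. A name had to carry a species code in the animal style, with a hyphen between miR and the number (hsa-miR-448, as against the plant style miR396), to lie above 0 in at least 1 of the T0 libraries, and to be listed at 0 in all 4 libraries of stored tissue. Of the 298 names in this style, 176 were above 0 at T0, and 39 of these had reads after storage as well. Both T0 libraries held 18 of the 137 members, and 1 T0 library held the other 119.

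Commercial-grade carrots were disinfected with chlorine, peeled by hand and shredded in a food processor, so that every group carried the wound. T0 was the shredded tissue without storage, and T24 and T48 were subsamples of it after 24 h and 48 h at 20 °C, with 2 libraries per time point. The sources used here do not say whether the libraries of a time point came from separate batches of carrots, so that their spread may be technical. Values are RPM, the reads of a name scaled to a total of 1000000 over the listed miRNAs of a library, which the authors named TPM.

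Plant miRNAs are cut from hairpin precursors in the nucleus by a Dicer-like enzyme, are methylated at the end, and guide an Argonaute protein to mRNAs with which they pair along nearly their whole length, which are then cut or kept from translation. Animal miRNAs are cut in separate steps by Drosha and Dicer and pair with their targets mainly through the seed, bases near the 5′ end. The miRNA families of plants and of animals arose separately. In the list analysed here, a name such as hsa-miR-448 is therefore a label that the authors' matching to miRBase gave to a carrot sequence. The methods allow 1 mismatch in the alignment. How closely a carrot sequence matches its namesake along its length was not examined here. The roles given below are those of the animal or viral miRNA that lent the name. In the list each name also has a prefix that marks it as new in carrot, which is left out here.

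The T0 libraries held 154758 and 174557 reads. Those of T24 held 127079 and 134312 reads, and those of T48 64886 and 199911 reads. A read was thus worth 6.46 and 5.73 RPM in the T0 libraries. A name listed at 0 may still stand for up to 3 reads, which is 23.6 and 22.3 RPM in the T24 libraries and 46.2 RPM in the first T48 library, the shallowest of the 6. These limits and the intervals below cover counting error only, since PCR copies are not independent molecules. The smallest value above 0 was 2 to 4 reads in every library. Reads are the deposited values times the smallest total that makes all of them whole, and the values alone do not set this total apart from a multiple of it.

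Before storage, the 137 names made up about as many entries as all others in the first T0 library and fewer in the second. Their share of the reads depends on a few abundant names. The first T0 library held 99 of the 137, 51.3% of its 193 names, and the second held 56, 41.5% of its 135 names. Their reads were 2.20% of the total in the first T0 library and 1.38% in the second. Without the most abundant member of each library, the shares were 1.63% and 1.1%. The 3 most abundant names of the list took 88.0% and 89.7% of the reads at T0, and with these left out of the total, the members summed to 183383 and 133901 RPM, in place of 22034 and 13789 RPM. With each member taken in the T0 library where it had more reads, the median was 13 reads, the lowest 3 and the highest 885. The 10 members with the most reads took 59.9% of the 5817 reads of all members.

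The 18 names found in both T0 libraries had levels in one library at most 2.03-fold above those in the other, while the other 119 members were at 0 in a T0 library. Together they took 0.675% of the reads in the first and 0.638% in the second. The most abundant was bta-miR-2450b, named after a cattle miRNA, with 1816 and 1501 RPM (281 and 262 reads). Next came bta-miR-507-3p, whose namesake belongs to a cluster of testis-expressed miRNAs on the X chromosome of primates, with 1150.2 and 1215 RPM. These values lay within counting error of each other. For hsa-miR-448, which in vertebrates is encoded inside the serotonin receptor gene HTR2C, the T0 libraries had 1163 and 1157 RPM. For hsa-miR-5580-5p, they had 775 and 728 RPM. The other 14 of the 18 had at most 388 RPM.

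In the middle of the range, mmu-miR-5110 had 388 and 304 RPM, with the first library higher. The values of cin-miR-4147-3p, named after a sea squirt miRNA, were 265 and 298 RPM. For eca-miR-9128, a horse name, they were 297 and 212 RPM. Here the higher library was not the same for each name. The values of mmu-miR-2137 were 123 and 178 RPM. For hpo-miR-10103-3p and ppc-miR-8348-5p, labelled after a parasitic and a free-living nematode, they were 116 and 137 RPM and 142 and 103 RPM. The low end was formed by names with at most 19 reads in a library.

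Among these scarce members, hsa-miR-193b-5p, whose namesake is studied in fat and muscle cells, had 77.5 and 109 RPM. The values of hsa-miR-4283 were 116 and 57.3 RPM, the widest gap of the 18. For isc-miR-5310, a tick name, they were 58.2 and 85.9 RPM. Each of these rests on 9 to 19 reads per library. For ppc-miR-8258-3p, the T0 libraries had 71.1 and 68.7 RPM, and for bmo-miR-3315, a silkworm name, 58.2 and 68.7 RPM. For hsa-miR-1268a, they had 38.8 and 74.5 RPM. The last was also the only one of the 18 with under 7 reads in a library. The values of hcmv-miR-UL112-3p, named after a cytomegalovirus miRNA that represses a viral immediate early gene, were 45.2 and 45.8 RPM, and those of mdo-miR-12297b-5p, an opossum name, were 45.2 and 40.1 RPM.

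**Figure D1:**
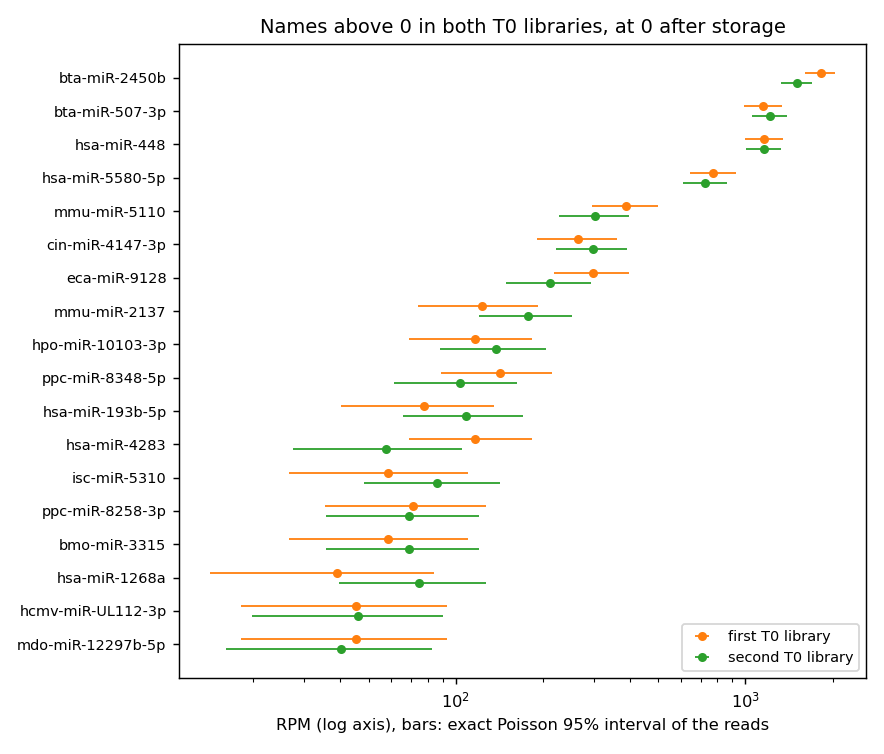
RPM (log axis) of the 18 names above 0 in both T0 libraries, with 1 point per library and bars for the exact Poisson 95% interval of its reads. The points of a name lie close together, from 1816 and 1501 RPM for bta-miR-2450b down to 45.2 and 40.1 RPM for mdo-miR-12297b-5p, and the bars of each pair overlap.

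Whether a name differed between the T0 libraries by more than counting error was tested with Fisher's exact test (two-sided) on its reads against all other reads, over the 57 names of any kind above 0 in both. By its construction, this test leaves out the 119 members at 0 in a T0 library. Once names above 0 in at least 1 T0 library were included, an alternative chosen after seeing the data, 214 of 271 names differed, with 109 of the 137 members among them. Of the 57, 11 differed at a Benjamini-Hochberg adjusted p of at most 0.05, which is 19.3%. None of the 18 members was among them, and 1 had an unadjusted p under 0.05. This was bta-miR-2450b, with a second-to-first ratio of 0.827 (exact 95% interval 0.696 to 0.982, Fisher's exact test p = 0.0281, adjusted p = 0.107). For hsa-miR-448, the ratio was 0.995 (0.810 to 1.22). Over the 18, the higher library exceeded the lower by 1.01-fold to 2.03-fold, with a median of 1.20-fold, and 9 names were higher in the first and 9 in the second. Depth bears on this count, as the members had a median of 41 reads over both libraries and the 39 other names 127. With 10 and 18 reads, as for hsa-miR-4283, the interval of the ratio ran from 0.203 to 1.13, so that a difference of that size was not detectable.

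The 119 names found in 1 T0 library were split unevenly, 81 in the first and 38 in the second. The largest was gga-miR-6687-3p, a chicken name, with 5719 RPM (885 reads) in the first T0 library and 0 in the second. At the same share, the second library would have held 998 reads of it. For dme-miR-2501-5p, a fruit fly name, the order was the reverse, with 0 in the first library and 2756 RPM (481 reads) in the second. At that share, the first would have held 426 reads. Both names were thus more abundant in their library than any of the 18, and a 0 in the other is far outside counting error.

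The next in size were mmu-miR-380-5p, from an imprinted miRNA cluster of mammals, with 1059.7 RPM in the first T0 library, and mmu-miR-3077-3p, with 1059.8 RPM in the second. In the first library only, ppc-miR-8317b-5p and tca-miR-3811a-3-5p, a flour beetle name, had 536 RPM each. These 4 were listed at 0 in the other T0 library. Also in the first only, mdo-miR-7330-5p had 485 RPM and sko-miR-4835-3p, an acorn worm name, 407 RPM. In the second only, bfl-miR-92b-5p, named after a lancelet member of the family that includes vertebrate miR-92, had 378 RPM and mmu-miR-3620-3p 361 RPM. Below these 10, the other 109 names had 19.4 to 292 RPM in the library that held them.

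At the same share, every one of the 119 would have had more than 3 reads in the T0 library where it was listed at 0, with a median of 12.4 reads for the names of either library. The share of members found in both libraries was higher among names with more reads. With each name again taken in the T0 library where it had more reads, 4 of the 8 members with at least 100 reads were in both. Of the 50 with under 10 reads, 2 were. Over all names of the list above 0 at T0, the counts were 20 of 34 and 2 of 67. The lowest members were cin-miR-4077a-5p, mmu-miR-380-3p and ssa-miR-723-5p, each with 19.4 RPM (3 reads) in the first library and 0 in the second. At the same share, the second would have held 3.38 reads of each, below its smallest listed value of 4 reads.

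**Figure D2:**
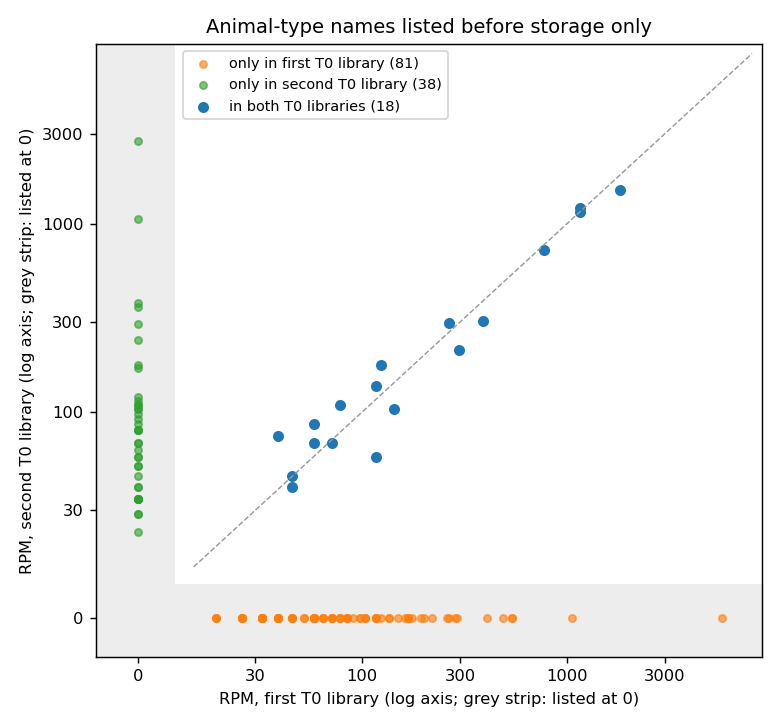
RPM of the 137 names in the first (x) and second (y) T0 library, on log axes with a grey strip for names listed at 0. The 18 names in both libraries follow the dashed line of equal values, while 81 names lie in the strip of the second library and 38 in that of the first, up to 5719 and 2756 RPM, with no name between these sets.

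All 137 names were listed at 0 in the 4 stored libraries, which is what the rule required. Whether a 0 reflects less of a small RNA in the tissue was not tested. If it did, fewer cells that hold the small RNA and less of it per cell could not be told apart in bulk tissue. To show what depth allows, the share of each name in the pooled reads of both T0 libraries was carried over to the stored libraries. For bta-miR-2450b, this share would give 210 and 221 reads at T24, and 107 and 330 reads at T48. For hsa-miR-448, it would give 147 and 156 reads at T24, and 75.3 and 232 reads at T48. At the low end, mdo-miR-12297b-5p would have 5.40 and 5.71 reads at T24, and 2.76 and 8.50 reads at T48. Of the 18, 16 would have had more than 3 reads in every stored library.

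The names of 1 T0 library had fewer reads to carry over. Of these 119, 45 would have had more than 3 reads in every stored library, and 82 in each T24 library. In the first T48 library, the shallowest, 74 would have had at most 3 reads. For gga-miR-6687-3p, the carried-over share was 342 and 361 reads at T24, and 174 and 537 reads at T48. Hence 76 of the 137 names had at most 3 reads carried over in at least 1 stored library, where a 0 was not detectable as a lower share. For the other 61, more than 3 reads were carried over to each stored library. Of these, 45 were names of 1 T0 library. At the same share, they would have passed 3 reads in the other T0 library too, where they were at 0. For these 45, passing 3 reads therefore does not set a 0 after storage apart from the 0 within T0.

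**Figure D3:**
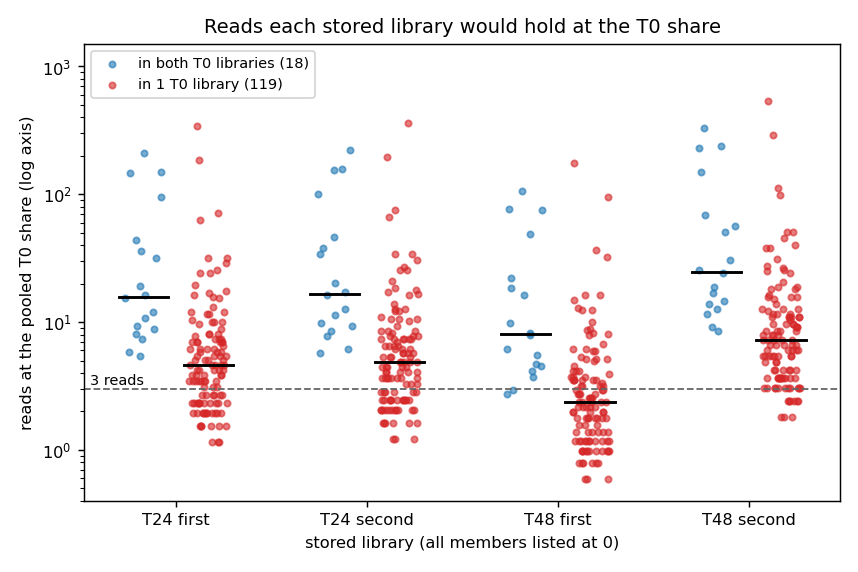
Reads (log axis) that each member would have in each stored library at its pooled T0 share, for the 18 names in both T0 libraries (blue) and the 119 in 1 (red), with black lines for medians. The dashed line marks 3 reads. The medians of the 18 run from 8.08 to 24.9 reads and those of the 119 from 2.36 to 7.28 reads, and the first T48 library is lowest in both sets.

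For completeness, the time points were also compared by limma on log2(RPM + 1) over all names above 0 in at least 1 of the 4 libraries. A call required a 2-fold change or more, with 0.05 as the largest p-value before adjustment. At T24, 31 of 394 names were called lower than at T0, or 7.87%, and at T48 32 of 369, or 8.67%. All 18 members of both T0 libraries were among the calls at each time, and none of the 119 others. The members were chosen on this contrast, and both comparisons share the T0 libraries, so that nothing is read from these counts. At an adjusted p of at most 0.05, limma called 15 names lower at T24, with 9 members, and 0 at T48. Before adjustment, limma called 32 at T48 and voom 40.

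Precursor positions show that some of these names share a locus with a name that has reads after storage. By the positions that the study's list of IDs gives, 13 of the 137 members (9.49%) lie in 11 sets of names whose precursors overlap on the same strand. The corresponding count was 38 of the 332 other names (11.4%). Each of the 13 overlapped another precursor over 92.5% to 100% of its own length. In no library did a set have reads under more than 1 of its names, and this held for all 24 such sets of the list. In 10 of the 11 sets, with 11 members, the locus had reads in a stored library under another name. For these 11 members, absence after storage holds for the name and not for the locus. Whether the names of a set stand for the same small RNA was not tested.

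The locus of ppc-miR-8348-5p, a member of both T0 libraries, had reads in both T0 libraries and in 3 stored ones. With 142 and 103 RPM at T0, it was listed at 0 afterwards, and gsa-miR-2a-5p, labelled after a flatworm, had 6 reads (44.7 RPM) in the second T24 library, 14 reads (216 RPM) in the first T48 library and 8 reads in the second. Likewise, sko-miR-4835-3p had 407 RPM in the first T0 library, and the rice-type name osa-miR1846a-5p at its locus had 378 RPM in the first T24 library and 940.1 and 290.1 RPM at T48. This locus was at 0 in the second T0 library and in the second T24 library. Its other stored values lay on both sides of the value in the first T0 library. For ppy-miR-1305, named after an orangutan miRNA, the single T0 value was 168 RPM, and bta-miR-2285i had 275 and 164 RPM at T24. For ptr-miR-6132, it was 149 RPM, and hsa-miR-3918 had 78.7 RPM in the first T24 and 90.0 RPM in the second T48 library.

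Different names at a locus were also found within T0. At the locus of gga-miR-10585-5p, the first T0 library had 136 RPM under this name, and the second had 172 RPM under cin-miR-4048-3p. Counted as 1 entry, the pair was found in both T0 libraries and at 0 after storage. For hsa-miR-6731-3p, the first T0 library had 123 RPM, and the same locus had 229 RPM in the second T0 library and 300.1 RPM in the second T48 library as gma-miR5030b, a soybean-type name. The first T48 library had 478 RPM there under mir-44, a name without a known relative. A set of 3 names joined tgu-miR-2962-3p, with 45.2 RPM in the first T0 library, pal-miR-760-5p, with 68.7 RPM in the second, and api-miR-3018, with 74.5 RPM in the second T24 library.

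In the remaining sets, the members had 32.3 to 77.5 RPM in the first T0 library. They were dme-miR-4948-3p, ame-miR-3788-5p, ssa-miR-301c-5p and gga-miR-1658-3p, and their loci had 25.0 to 44.7 RPM in stored libraries as mir-16, bta-miR-2331-5p, dme-miR-315-5p and bmo-miR-31-3p. The other 124 members overlapped no other listed precursor.

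**Figure D4:**
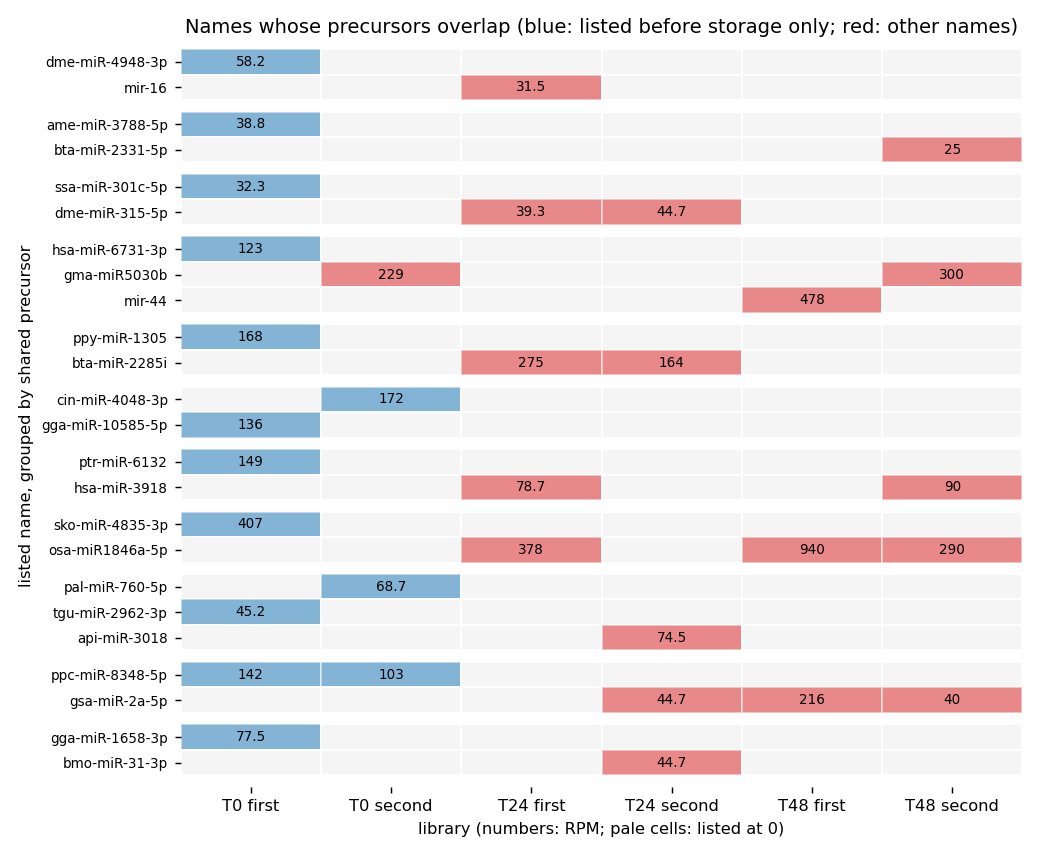
RPM of the names in the 11 sets with overlapping precursors (rows, grouped by set) in the 6 libraries (columns). Blue cells are names of the 137 and red cells are other names, pale cells are listed at 0, and no column of a set has more than 1 filled cell.

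By species code, the 137 names came from 50 sources, 28 of which gave a single name. Mammals gave 61 names, arthropods 26, other vertebrates 20, nematodes 10, other invertebrates 10 and flatworms 3. The most frequent codes were those of mouse, with 16 names, human, with 15, and chicken and opossum, with 9 each. The label of animal-type names did not hold for all, as 6 names carried a virus code and 1 that of the amoeba Dictyostelium. Among the 161 other names of this style, mammals gave 76, arthropods 28 and viruses 4. These counts were not tested against each other.

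Of the 18 names in both T0 libraries, 11 had a mammal code, 3 a nematode code and 2 an arthropod code. None of the 20 names of other vertebrates was among them, where 13.1% of all 137 members were in both. These counts were not tested either. The virus-coded names of 1 library were mcmv-miR-m108-2-3p, with 103 RPM in the first T0 library, mdv2-miR-M26-5p, with 103 RPM in the second, and ebv-miR-BART5-3p, iltv-miR-I6-3p and mdv2-miR-M14-3p, with 32.3 RPM each in the first. The amoeba-coded name was ddi-miR-7095-3p, with 38.8 RPM in the first. By suffix, which marks the hairpin arm of the namesake, 54 of the 137 names ended in 5p, 43 in 3p and 40 in neither. The other 161 names split into 57, 56 and 48. The arm in the carrot precursor was not examined.

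**Figure D5:**
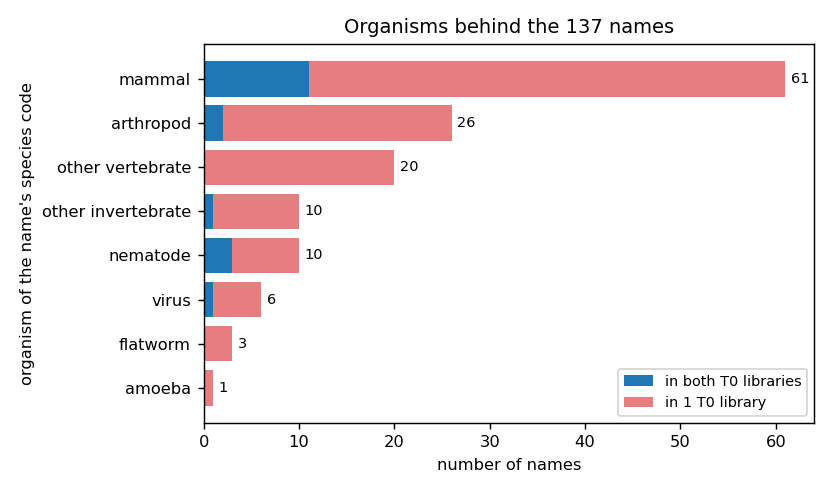
Number of names (x) by the organism of their species code (y), with names in both T0 libraries in blue and names in 1 in red. Mammal codes lead with 61 names, 11 of them in both T0 libraries. All 20 names of other vertebrates were in 1 T0 library, as were 119 of all 137 names.

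Few of the 137 formed families by name. For 127, no other listed animal-type name had the same number. The numbers 380, 433 and 2 were shared among members. In mammals, miR-380 and miR-433 lie in an imprinted cluster, and mmu-miR-380-3p had 19.4 RPM beside 1059.7 RPM of mmu-miR-380-5p in the first T0 library. Both names labelled miR-433, mmu-miR-433-5p and pal-miR-433-5p, a bat name, were also in the first only, with 38.8 and 116 RPM. The miR-2 family acts on cell-death genes in flies, and its spider names pte-miR-2b-5p and pte-miR-2g-5p had 71.1 and 84.0 RPM in the first.

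With the number 376, the member mmu-miR-376b-5p had 32.3 RPM (5 reads) in the first T0 library. The name mmu-miR-376a-3p had 223 RPM in the second T0 library and 189 RPM in the first T24 library. Under hsa-miR-376a-5p, which is among the 10 most abundant names of the list, the T0 libraries had 74187 and 89174 RPM and every stored library had at least 41232 RPM. For number 4835, sko-miR-4835-5p, whose precursor does not overlap that of sko-miR-4835-3p, had 446 and 332 RPM before storage and 94.4 and 112 RPM after 24 h, where sko-miR-4835-3p was at 0. The member hsa-miR-516b-3p had 71.1 RPM in the first T0 library, where hsa-miR-516b-5p had 103 RPM. For mmu-miR-96-3p, whose namesake arises from a precursor active in sensory hair cells, the value was 28.6 RPM in the second T0 library, and hsa-miR-96-5p appeared at T24 only, with 47.2 RPM in the first library.

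Just outside the rule are names with few reads after storage, taken here in order of summed RPM after storage. The first 5 were each in 1 T0 library, at 32.3 to 304 RPM. The nearest was hsa-miR-516b-5p, with 103 RPM in the first T0 library and 37.2 RPM (5 reads) in the second T24 library. For dps-miR-2576, the values were 115 RPM in the second T0 and 44.7 RPM in the second T24 library, and for prd-miR-7930-3p 142 RPM in the first T0 and 67.0 RPM in the second T24 library. Of the 39 animal-type names found before and after storage, 17 were outside the rule through a single stored library. Next in order, hsa-miR-4775 had 32.3 RPM in the first T0 library and 23.6 and 52.1 RPM at T24. After it, sma-miR-8462-3p had 304 RPM in the first T0 and 89.3 RPM in the second T24 library. Other near names differed from most members, as der-miR-9691-5p had 6 reads after storage but 452 and 521 RPM at T0. The median of the higher T0 value was 239 RPM for names found before and after storage, outside the 10 most abundant. For the members it was 80.2 RPM.

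The other names found at T0 only were 34 plant-type names and 33 without a known relative. Of these, 4 (11.8%) and 5 (15.2%) were in both T0 libraries, beside 18 of 137 (13.1%) for the animal-type names. With each name taken in the T0 library where it had more reads, their medians were 12.5 and 29 reads, beside 13. Of the 39 animal-type names found before and after storage, 17 (43.6%) were in both T0 libraries, with a median of 44 reads. The median reads move with these shares, and the part of depth in the shares was not tested.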

How the data were processed

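Small RNA was sequenced single-end after library preparation with a SMARTer kit. According to the methods, adaptors were removed by cutadapt, reads had to be at least 18 nucleotides long with a mean quality of 20, and the authors matched the rest to miRBase release 22 with Bowtie2 and miRDeep2, allowing 1 mismatch and up to 200 positions. The deposited values, named TPM by the authors, are RPM, scaled to 1000000 per library with no length, and 0 columns were left unused. No sequences were used, and no coordinates are printed.

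Reads were recovered as the smallest total at which all values of a library are whole (100% within 0.001 reads), the lowest total possible. They were used for Fisher's exact test, exact Poisson and Clopper-Pearson 95% intervals, and voom, and no negative binomial count model was run. Time points were compared with limma 3.58.1 in R 4.3.3 on log2(RPM + 1), with 4 libraries per comparison. The study used DESeq2, which RPM values do not suit. Both tests were run on simulated reads. These did not include abundant names at 0 in a single T0 library, as seen here, so the simulations do not bear on such names. Other steps used Python 3.11.15, scipy 1.17.1, numpy 2.4.6, pandas 2.3.3 and matplotlib 3.10.9. Positions from the study's ID list served only to find overlapping precursors, on the assembly of that list.

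Named were all members in both T0 libraries, the 10 highest of 1 library, members that share a number with another member or with 1 of the 10 most abundant names, virus and amoeba codes, the lowest members and the 5 nearest names outside the rule. Names in overlapping sets, the shared numbers 4835, 516 and 96, mmu-miR-376a-3p and der-miR-9691-5p were added after their values were seen. The members and lists were chosen with earlier results of these data known. Organisms were assigned to codes by hand. Alternatives were other minimum values, merged precursors, other totals, pseudocounts, filters and scalings, a replicate block, adjusted p-values and libraries left out.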

Additional observations from a re-analysis of the deposited data

How the results depend on the processing

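The number of animal-type names at T0 only was 99 with values below 50 RPM counted as 0, 62 below 100 RPM, and 125 with overlapping precursors merged. With 1 library left out it ran from 56 to 143, the lowest without the first T0 library and 99 without the second. The number in both T0 libraries stayed between 12 and 20. After merging it was 18, with the locus of ppc-miR-8348-5p lost and that of gga-miR-10585-5p gained. With the 3 most abundant names left out of the total, the summed values were 183383 and 133901 RPM in the T0 libraries, in place of 22034 and 13789 RPM, because the total is smaller.

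Names called lower by limma were 31 at T24 and 32 at T48. With an adjusted p of at most 0.05, they were 15 and 0, where 32 had passed before adjustment, and members among them were 9 and 0. With the replicate block they were 15 and 14, members 9 and 7. The labels do not say whether first and second libraries were paired across time points. The library names end in the same codes at T0 and T24 and in other codes at T48. The differences between first and second library correlated by 0.02 and -0.05 between T0 and T24 or T48. Only 101 of 394 and 94 of 369 names were above 0 in at least 2 of the 4 libraries, so this correlation cannot settle a pairing. With 1 library left out, the counts ran from 37 to 156 at T24 and from 37 to 158 at T48, the highest without the second T0 library and 101 and 98 without the first, when 1 T0 library is left and is assumed to vary like the pair. Median-of-ratios scaling moved the median change of names above 0 in all 4 libraries from -0.54 to -0.02 at T24, and the calls were 31 and 33. Voom, chosen after seeing the data, called 38 and 40.

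Names that differed between the T0 libraries fell from 11 to 3 when reads were divided by 3, because depth is lower, and were 214 of 271, with 109 of the 137 members, when names of 1 T0 library were included, an alternative chosen after seeing the data. No member of both libraries was called in the alternatives with adjusted p on both-library names. Depth limits the rest: 1 read is worth up to 15.4 RPM.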
